A study of Homo sapiens with 16 samples.

Results

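The EGF family is described here through 10 genes: 7 ligand genes (EREG, AREG, HBEGF, TGFA, BTC, EPGN and NRG1) and 3 receptor genes (EGFR, ERBB2 and ERBB3). They were taken by symbol from a table of 57500 genes, in which all 10 were found. The cells were MDA-MB-231, an established human triple-negative breast cancer line with mesenchymal features. They carried a short hairpin RNA whose expression is switched on by doxycycline, either a scrambled control sequence (shScramble) or one directed against AKAP2 (shAKAP2). AKAP2 encodes a scaffold protein that anchors protein kinase A, and the series concerns its part at focal adhesions. Each line was grown without doxycycline ("no dox") or with it ("dox"), which gave 4 groups of 4 libraries of polyadenylated RNA. All groups therefore carry a hairpin construct, and both dox groups share the drug. In the labels each library is a biological replicate, with no word on separate cultures, and p-values therefore reflect only the variation among these libraries. The dose, the duration, the hairpin sequence and whether each line is 1 clone are not stated in those labels.

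EGF family ligands are made as membrane-anchored precursors, and metalloproteases such as ADAM17 and ADAM10 release the active growth factor. TGFA, AREG, EPGN and EGF bind EGFR, while HBEGF, BTC and EREG bind EGFR and ERBB4, and NRG1 binds ERBB3 and ERBB4. Bound receptors pair up, ERBB2 serving as the partner without a ligand of its own and ERBB3 as one with little kinase activity, and signal through RAS and ERK and through PI3K and AKT. Triple-negative breast cancers lack amplified ERBB2 and often carry EGFR, and autocrine EGF family ligands are a known feature of basal-type breast cancer cells.

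Total counts per library ran from 24482997 to 37472525, and 15566 genes were tested, among them 9 of the 10 members. EPGN had too few reads to be tested. The targeted gene, AKAP2, had 168 counts over the 4 uninduced shAKAP2 libraries (1.42 ± 0.0271 CPM, the counts scaled to library size; SD, n = 4) and 4 counts over the induced ones (0.0403 ± 0.0583 CPM), a log2 fold change of -5.06. In the control line AKAP2 was at 1.17 ± 0.239 CPM without and 1.76 ± 0.686 CPM with doxycycline. The annotation's PALM2-AKAP2 gene shares 85.8% of the exon bases of AKAP2, so its reads may be divided between them. The cells had KRT8, KRT18, KRT19 and EPCAM transcripts. Of 5 mesenchymal markers, VIM was at 1303 to 1807, FN1 at 99.4 to 475.4 and ZEB1 at 64.2 to 104.1 CPM over all libraries. The mesenchymal markers CDH2 and SPARC were scarce, at 0.653 to 2.79 and 0.627 to 4.599 CPM. The luminal markers ESR1, PGR and FOXA1 were at no more than 3 counts in any library. The luminal markers GATA3 and CDH1 were at 9.74 to 19.4 and 0.0366 to 2.42 CPM over all libraries. Among basal markers KRT5 was at 0 throughout, and KRT14 and KRT17 were at no more than 0.546 CPM. TP63, also a basal marker, was found in every library, at 0.376 to 4.54 CPM. The summed level of 9 luminal markers, led by KRT8, was 1063 to 1107 CPM in uninduced and 1285 to 1428 CPM in induced shAKAP2 libraries, without overlap, and 967.7 to 1310 and 1083 to 1538 CPM in the shScramble line. The summed level of 7 fibroblast markers was 24.8 to 46.6 CPM in uninduced and 46.1 to 70.5 CPM in induced shScramble libraries. In the shAKAP2 line it was 21.5 to 33.1 and 19.5 to 21.6 CPM. COL1A2 and PDGFRB led the shScramble sums. COL1A1 went the other way. It averaged 2.85 and 3.67 CPM in shScramble and 6.55 and 7.12 CPM in shAKAP2 cells, without and with doxycycline. COL3A1, PDGFRA and DCN were higher in uninduced shAKAP2 than in uninduced shScramble cells, and lower in induced shAKAP2 than in induced shScramble cells. The sum of 8 blood cell markers was 4.28 to 15.5 CPM over all libraries, and that of 3 endothelial markers 0.338 to 8.03 CPM. The part of these markers in the results was not tested. The shScramble libraries numbered 1 stood apart from their groups: their root mean square deviation from the group mean over genes was 0.285 and 0.298 on the log2 scale, against 0.125 to 0.188 in the other 14. Values are given with and without these libraries where it matters.

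EREG and TGFA were the members whose doxycycline effect was called different between the lines, and both hold a 7-letter word, GAACACA, that the hairpin's target transcript also holds. The word was known from earlier results of these data as frequent in the 3' untranslated region (3' UTR) of genes with lower counts in induced shAKAP2 cells, so its presence is a description. Each of the 3 sites below is shown as 29 bases of the longest annotated 3' UTR, written on the transcript's strand (GRCh38) with the word in capitals, so that the letters around it can be compared.
EREG, chr4:74386644-74386672, plus strand: aaaatatgtaaGAACACAttttaaatact
TGFA, chr2:70447749-70447777, minus strand: cccaaaaccaaGAACACAttgcagaagta
AKAP2, chr9:110169247-110169275, plus strand: gcagtttatgaGAACACAttttcacagtt
EREG and AKAP2 share a run of 12 bases around the word, EREG and TGFA one of 11, and TGFA and AKAP2 one of 10. These runs include the 7 letters of the word, and runs in other genes that hold it were not examined. In TGFA, 1 of 6 transcripts with an annotated 3' UTR holds the word, and in EREG the only such transcript does. The longest 3' UTRs of the other 8 members lack it, although 1 of 7 EGFR transcripts with an annotated 3' UTR holds it. Over all tested genes with a 3' UTR, 12.8% of 12832 hold the word, and among those with a 3' UTR of a similar length (0.8 to 1.25 times), the share was 25.03% for EREG (3943 bases) and 24.0% for TGFA (3579 bases). Which transcripts these cells use, and the hairpin's own sequence, were not examined.

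EPGN, EREG, AREG and BTC lie within 486.2 kb of chromosome 4. EPGN and EREG are 49.8 kb apart, EREG and AREG 56.4 kb, and AREG and BTC 289.7 kb. EREG and AREG are neighbours on the same strand, and the 250 bases before the RefSeq start of each (GRCh38.p14) are printed for comparison. Capitals mark the full cyclic AMP response element, TGACGTCA, or its short form, TGACG. They also mark the core promoter word TATAAA.
EREG, chr4:74364895-74365144, plus strand: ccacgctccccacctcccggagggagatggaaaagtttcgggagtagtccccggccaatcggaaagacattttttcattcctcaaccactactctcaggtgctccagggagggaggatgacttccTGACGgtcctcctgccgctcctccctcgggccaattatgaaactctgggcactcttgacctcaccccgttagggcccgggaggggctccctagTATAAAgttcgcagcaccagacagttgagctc
AREG, chr4:74444886-74445135, plus strand: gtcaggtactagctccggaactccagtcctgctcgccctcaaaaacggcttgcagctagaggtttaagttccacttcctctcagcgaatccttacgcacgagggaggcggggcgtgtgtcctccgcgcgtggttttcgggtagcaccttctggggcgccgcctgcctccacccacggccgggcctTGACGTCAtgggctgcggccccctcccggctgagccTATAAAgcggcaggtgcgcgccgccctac
Both hold TATAAA, 32 bases before the start in EREG and 29 in AREG, as do 10.7% of all 35116 promoter windows of this length. AREG holds the full TGACGTCA 65 bases before its start, found in 1.65% of windows, and EREG only TGACG, 125 bases before its start, found in 21.2%. Both strands were searched, and each TGACGTCA contains the short one on both strands. Among the 8 members with a promoter entry, TGFA and EPGN also hold TGACG, and TGACGTCA was in none but AREG. A match is a description of letters, not of a bound site.

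In the shAKAP2 line 4 of the 9 tested members were lower with doxycycline, TGFA, EREG, ERBB3 and ERBB2. In that contrast the drug and the hairpin change together. The test was edgeR's quasi-likelihood test, with a call at a Benjamini-Hochberg adjusted p under 0.05. Of all tested genes 28.3% were called, 13.1% higher and 15.2% lower. The test called 0 members higher, also at an unadjusted p under 0.05 and with DESeq2 or limma-voom. The count of calls in either direction was 7 without the induced shScramble library 1, HBEGF being called higher there (log2 0.33, adjusted p = 0.027). Without both shScramble libraries numbered 1, 1 member (HBEGF) was called higher and 5 lower. The count was 2 without the uninduced shAKAP2 library 4 or the induced shAKAP2 library 3. For 5 members the induced and uninduced shAKAP2 libraries did not overlap (TGFA, EREG, HBEGF, NRG1 and ERBB2), as for 36.5% of all tested genes. The median log2 fold change over the 9 members was -0.26, against 0.002 over all tested genes. In the shScramble line 1 member, EREG, was lower with doxycycline, when 1.08% of all genes were called, 0.559% higher and 0.52% lower. EREG was also the one member without overlap there, as were 4.43% of all genes. The lines' doxycycline effects were called different for 2 members, EREG and TGFA, both more negative in the shAKAP2 line, when 18% of all genes were called, 7.53% more positive and 10.5% more negative. Without the induced shScramble library 1 that count was 4, with BTC added as more positive (log2 1.15, adjusted p = 0.0455) and EGFR as more negative (-0.46, 0.0255). Without both libraries numbered 1 it was 6, of which 2 were more positive and 4 more negative. The 2 were HBEGF (log2 0.42, adjusted p = 0.00196) and BTC (1.05, 0.0435), and ERBB2 (-0.30, 0.022) and ERBB3 (-1.52, 0.0114) were added as more negative. In bulk RNA, fewer cells of a type and less RNA per cell cannot be told apart.

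**Figure D1:**
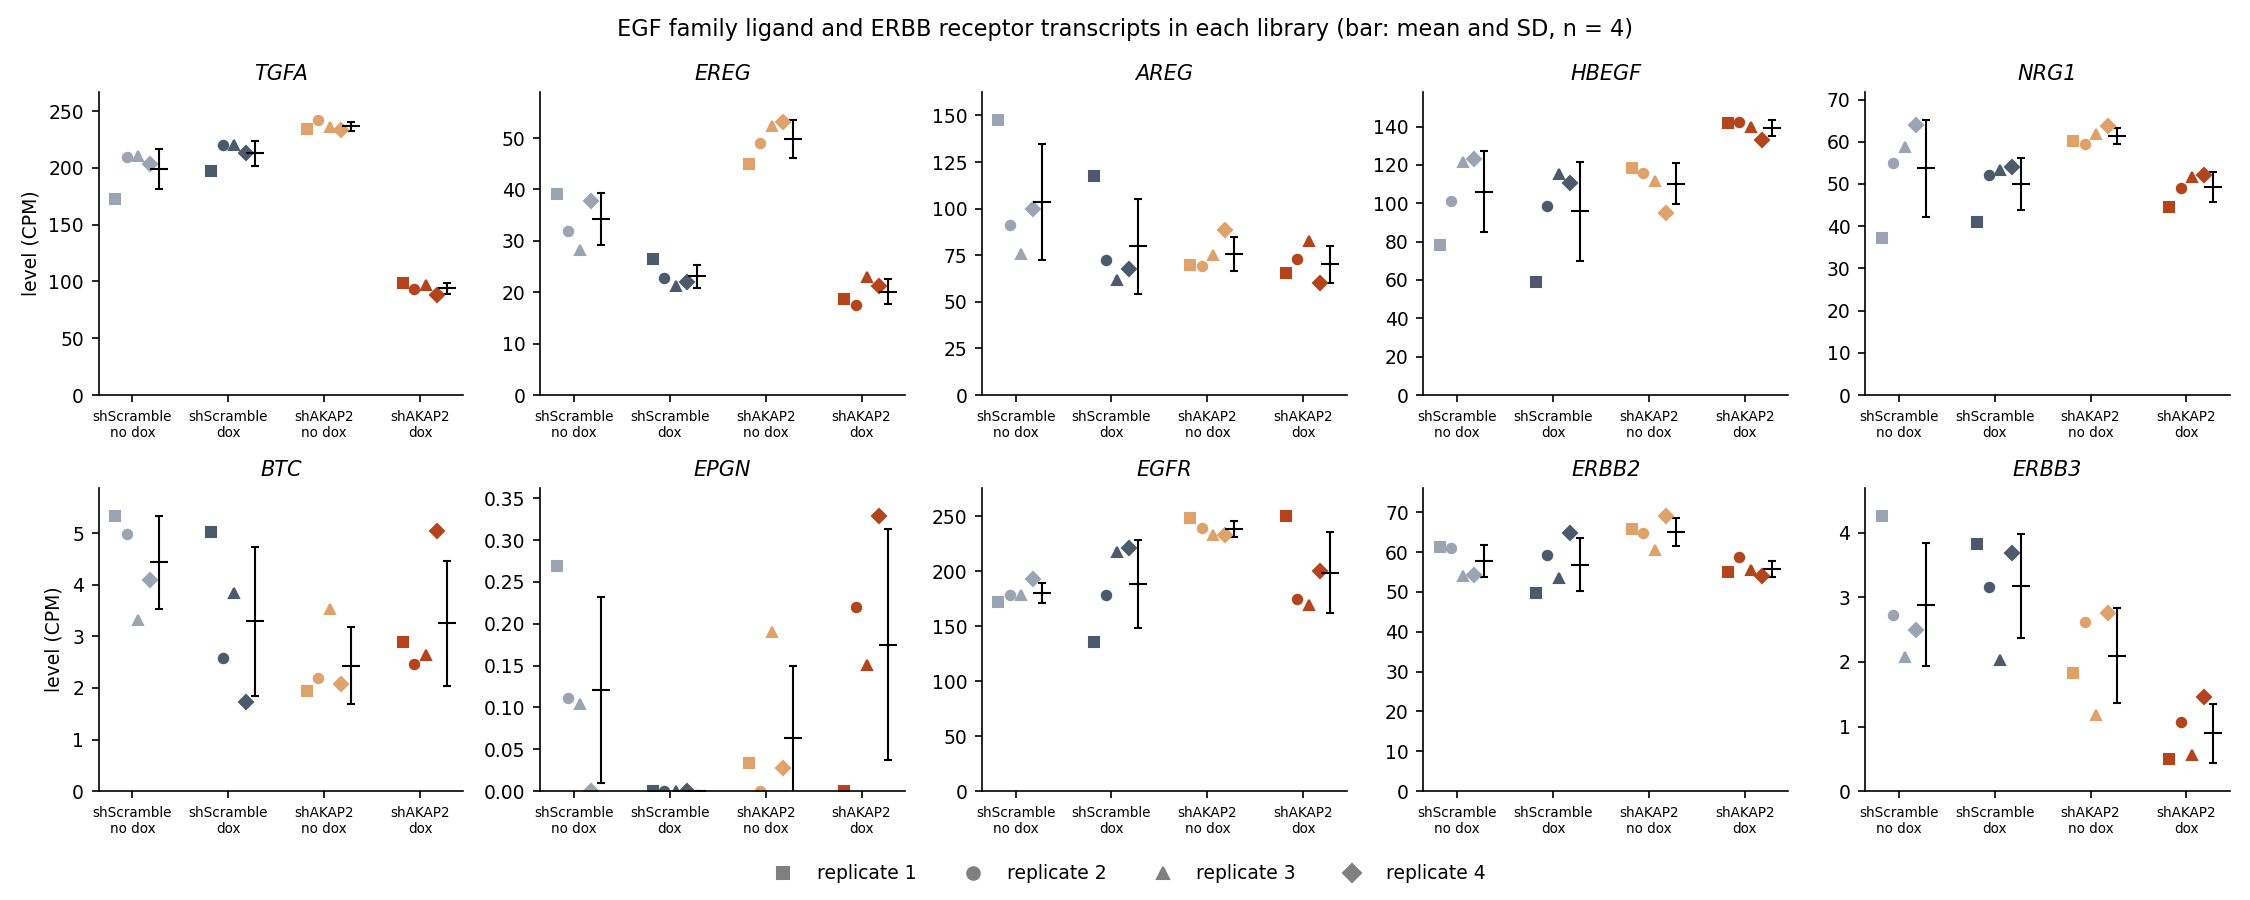
Level in CPM (y axis) of each of the 10 members in each library, by group (x axis), with the replicate number as the symbol and the mean and SD (n = 4) beside the points; bars that would fall below 0 are clipped at 0. TGFA in induced shAKAP2 cells, at 87.8 to 98.5 CPM, lies below every other library, and the square symbols of the shScramble groups (replicate 1) are often the extreme point.

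TGFA, encoding transforming growth factor alpha (ENSG00000163235; GRCh38 chromosome 2, 70447280 to 70554193, minus strand), had the smallest p of the members. In uninduced shAKAP2 cells its libraries were at 234.1, 242.5, 235.8 and 233.3 CPM. In induced cells they were at 98.5, 93.0, 96.6 and 87.8 CPM. All 4 induced libraries lay far below all 4 uninduced ones, and the induced level was 39.8% of the uninduced one (log2 -1.33, SE 0.0681, adjusted p = 1.04e-11), the 24th smallest p of all genes tested. The control line was at 172.8, 209.7, 210.0 and 203.6 CPM without and 197.1, 220.3, 220.1 and 213.0 CPM with doxycycline. Those groups overlapped, and their log2 difference was 0.10 (95% interval -0.04 to 0.24, adjusted p = 0.749). The difference between the lines' effects was -1.43 (SE 0.095, adjusted p = 1.54e-09). TGFA kept its call for the shAKAP2 effect and for the difference between lines under every alternative run.

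EREG encodes epiregulin, a ligand of EGFR and ERBB4 with low affinity (ENSG00000124882; GRCh38 chromosome 4, 74365143 to 74388751, plus strand). It was the one member called lower with doxycycline in both lines. The log2 values of AREG, NRG1 and ERBB2 were also negative in both, without a call in each line. Uninduced shAKAP2 libraries had 44.9, 49.1, 52.3 and 53.2 CPM. Induced ones had 18.7, 17.6, 22.9 and 21.2 CPM. The groups did not overlap, and 40.3% of the uninduced level was left (log2 -1.31, SE 0.111, adjusted p = 1.84e-08). Control libraries had 39.2, 32.0, 28.2 and 37.8 CPM without and 26.4, 22.7, 21.2 and 22.1 CPM with doxycycline, again with no overlap. There 67.3% of the level was left (log2 -0.57, SE 0.110, adjusted p = 0.00848). That call was lost when only the shScramble libraries entered the fit (log2 -0.57, adjusted p = 0.123), and it held without both libraries numbered 1 (log2 -0.57, adjusted p = 0.000618). The difference between the lines' effects was -0.74 on the log2 scale, the larger fall being in the shAKAP2 line (SE 0.155, adjusted p = 0.00206), and it was called under every alternative run.

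The starting level of EREG also differed between the lines. Without doxycycline it averaged 49.9 ± 3.75 CPM in shAKAP2 and 34.3 ± 5.11 CPM in shScramble cells (SD, n = 4 each; log2 0.54, SE 0.108, adjusted p = 0.00205), with no overlap. With doxycycline the levels were 20.1 ± 2.41 and 23.1 ± 2.29 CPM, the ranges overlapped, and the log2 difference was -0.20 (95% interval -0.43 to 0.03, adjusted p = 0.165). So the lines differed before induction and were not called apart after it. These 4 comparisons share libraries with each other.

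AREG encodes amphiregulin, an EGFR ligand and the neighbour of EREG (ENSG00000109321; GRCh38 chromosome 4, 74445134 to 74455009, plus strand). Its libraries had 69.5, 69.4, 75.2 and 88.7 CPM in uninduced and 65.3, 72.8, 82.9 and 59.9 CPM in induced shAKAP2 cells. The groups overlapped, with a log2 difference of -0.11 (95% interval -0.57 to 0.35, adjusted p = 0.754). In the control line it had 147.8, 91.3, 75.6 and 99.95 CPM without and 117.4, 72.7, 61.7 and 67.7 CPM with doxycycline. The library numbered 1 was the highest of each shScramble group, and the log2 difference was -0.38 (95% interval -0.83 to 0.08, adjusted p = 0.649). Without those libraries the shScramble means were 89.0 ± 12.3 and 67.4 ± 5.49 CPM (n = 3 each).

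HBEGF encodes heparin-binding EGF-like growth factor, a ligand of EGFR and ERBB4 (ENSG00000113070; GRCh38 chromosome 5, 140332843 to 140346631, minus strand). It was at 118.4, 115.8, 111.8 and 95.1 CPM in uninduced and 142.0, 142.2, 140.0 and 132.9 CPM in induced shAKAP2 cells. The groups did not overlap, yet the test over all 16 libraries did not call the difference (log2 0.34, SE 0.172, 95% interval -0.03 to 0.70, adjusted p = 0.164). The control line was at 78.2, 101.3, 121.6 and 122.9 CPM without and 58.8, 98.4, 115.4 and 110.5 CPM with doxycycline, and in each of its groups the library numbered 1 was the lowest. The shScramble SDs, 21.0 and 25.7 CPM, were 12.1 and 8.76 CPM without those libraries. The log2 difference in the shAKAP2 line was then 0.34, called with an adjusted p of 0.000179. It was also called without the induced shScramble library 1 alone (log2 0.33, adjusted p = 0.027) and when only the shAKAP2 libraries entered the fit (log2 0.33, adjusted p = 1.78e-05). Between induced cells of the 2 lines, HBEGF was higher in shAKAP2 (139.3 ± 4.37 against 95.8 ± 25.7 CPM; log2 0.54, SE 0.173, adjusted p = 0.0205), a call lost with no filter on low counts (adjusted p = 0.0781). Without both shScramble libraries numbered 1 this difference was smaller and called (log2 0.36, adjusted p = 0.000159), the induced shScramble mean then being 108.1 ± 8.76 CPM (n = 3).

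NRG1 encodes neuregulin 1, a ligand of ERBB3 and ERBB4 (ENSG00000157168; GRCh38 chromosome 8, 31639386 to 32767959, plus strand). It had 60.2, 59.5, 61.9 and 63.7 CPM in uninduced and 44.5, 48.9, 51.7 and 52.1 CPM in induced shAKAP2 cells, without overlap. The log2 difference was -0.32 (SE 0.123, 95% interval -0.57 to -0.06) and missed the threshold (adjusted p = 0.0615). It was called without both libraries numbered 1 (log2 -0.32, adjusted p = 0.000165) and with only the shAKAP2 libraries in the fit (log2 -0.32, adjusted p = 0.000137). Leaving out 1 library gave a call for the shScramble libraries 1 (uninduced, adjusted p = 0.00662; induced, 0.0347) and 4 (uninduced, 0.0483). Control libraries had 37.3, 54.9, 58.8 and 63.9 CPM without and 40.9, 52.1, 53.3 and 54.0 CPM with doxycycline. The log2 difference there was -0.10 (95% interval -0.36 to 0.16, adjusted p = 0.896), and the difference between the lines was -0.22 (95% interval -0.58 to 0.15, adjusted p = 0.442).

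BTC, encoding betacellulin (ENSG00000174808; GRCh38 chromosome 4, 74744759 to 74794686, minus strand), and EPGN, encoding epigen (ENSG00000182585; GRCh38 chromosome 4, 74308473 to 74315307, plus strand), had the fewest reads among the ligands. BTC had 57 to 199 counts per library, with means of 4.43 ± 0.91 and 3.29 ± 1.45 CPM in shScramble cells without and with doxycycline. The shAKAP2 means were 2.43 ± 0.744 and 3.26 ± 1.21 CPM, and the log2 difference between them was 0.43 (95% interval -0.22 to 1.07, adjusted p = 0.331). EPGN had 16, 0, 7 and 19 counts over the 4 libraries of uninduced shScramble, induced shScramble, uninduced shAKAP2 and induced shAKAP2 cells. The 0 in induced shScramble cells allows up to 3 counts over the group, 0.0256 CPM, counting error only. No fold change is given for it.

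**Figure D2:**
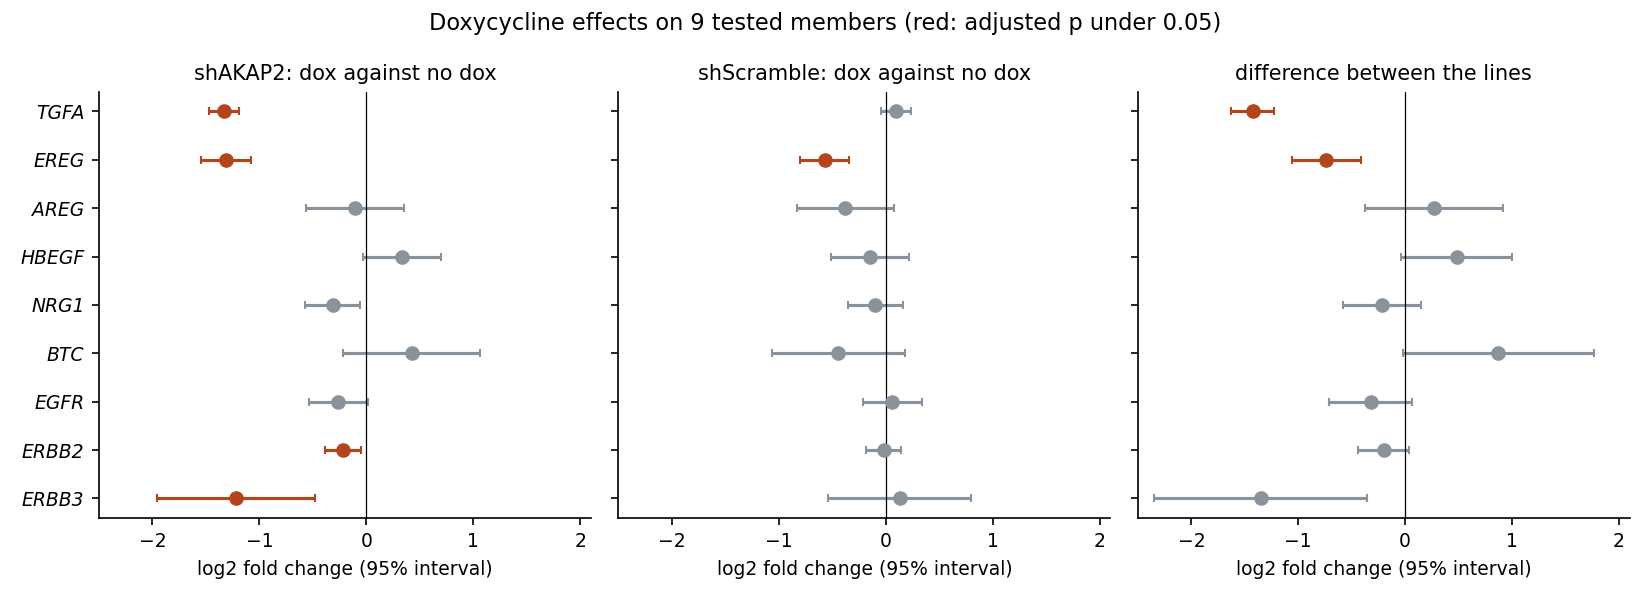
Log2 fold change with its 95% interval (x axis) for each of the 9 tested members (y axis), in the shAKAP2 line, in the shScramble line and as the difference between them; red points passed an adjusted p of 0.05. TGFA lies at -1.33 in the shAKAP2 line and 0.10 in the control line, whereas EREG is red and left of 0 in both. AREG, NRG1 and ERBB2 also lie left of 0 in both, and none of them is red in the control line.

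EGFR, the receptor for most of these ligands, is on chromosome 7 (ENSG00000146648; GRCh38, 55019021 to 55211628, plus strand). Its uninduced shAKAP2 libraries had 248.6, 238.9, 232.5 and 233.1 CPM and the induced ones 250.5, 174.6, 169.2 and 200.3 CPM. Library 1 of the induced group was the highest of all, so the groups overlapped, and the log2 difference was -0.26 (95% interval -0.54 to 0.01, adjusted p = 0.15). Without that library it was -0.39 and called (adjusted p = 0.0227), and without the induced shScramble library 1 it was -0.27 and called (adjusted p = 0.0419). Without both shScramble libraries numbered 1 it was -0.27 and not called (adjusted p = 0.0821). The control line had 171.7, 178.1, 178.0 and 193.1 CPM without and 135.4, 177.9, 217.7 and 221.0 CPM with doxycycline (log2 0.06, 95% interval -0.21 to 0.34, adjusted p = 0.953). The antisense gene EGFR-AS1 overlaps 1.5% of the exon bases of EGFR, and whether the counting separated reads on opposite strands is not stated.

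ERBB2, the ligand-less partner receptor (ENSG00000141736; GRCh38 chromosome 17, 39687914 to 39730426, plus strand), had 65.8, 64.7, 60.5 and 69.2 CPM in uninduced and 55.0, 58.7, 55.6 and 53.9 CPM in induced shAKAP2 cells. The groups did not overlap, and the fall was small (log2 -0.22, SE 0.0806, adjusted p = 0.0452). The call was lost in 11 of 23 alternatives, namely RLE scaling, no filter on low counts and 9 omissions of 1 library, with log2 values of -0.26 to -0.19 over all 23. Those 9 were library 2 of each shScramble group, uninduced shAKAP2 libraries 1, 2 and 4, and each induced shAKAP2 library, with adjusted p from 0.0527 (uninduced shScramble library 2) to 0.134 (uninduced shAKAP2 library 4). In the control line ERBB2 was at 57.7 ± 4.05 and 56.8 ± 6.63 CPM, a log2 difference of -0.02 (95% interval -0.19 to 0.15, adjusted p = 0.98). MIEN1 and PGAP3, on the opposite strand, overlap 5.5% and 1.9% of its exon bases.

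ERBB3, the receptor of NRG1 (ENSG00000065361; GRCh38 chromosome 12, 56076799 to 56103505, plus strand), was scarce, with 12 to 159 counts per library. It had 1.83, 2.61, 1.18 and 2.76 CPM in uninduced and 0.494, 1.06, 0.564 and 1.46 CPM in induced shAKAP2 cells. The ranges overlapped, and the fall was called (log2 -1.22, SE 0.354, adjusted p = 0.013). Leaving out the uninduced library 4 or the induced library 3 took it just past the threshold (adjusted p = 0.0522 for each, log2 -1.052 and -1.05). Control libraries had 4.27, 2.73, 2.07 and 2.49 CPM without and 3.82, 3.16, 2.04 and 3.69 CPM with doxycycline, and the log2 difference was 0.13 (95% interval -0.54 to 0.80, adjusted p = 0.962). The difference between the lines, -1.35 (95% interval -2.35 to -0.36), missed the threshold (adjusted p = 0.0553). It was called in 8 of 22 alternatives, with a log2 value of -1.69 to -1.16 over all 22, among them DESeq2 (adjusted p = 0.033), no filter on low counts (0.0297) and the omission of both shScramble libraries numbered 1 (0.0114). Leaving out 1 library gave a call for uninduced shScramble library 1 (adjusted p = 0.0168), induced shScramble library 3 (0.0366), uninduced shAKAP2 library 3 (0.0309) and induced shAKAP2 library 4 (0.022).

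Set against induced shScramble cells, induced shAKAP2 cells had 1 member higher, HBEGF, and 2 lower, TGFA (log2 -1.18, adjusted p = 4.07e-11) and ERBB3 (log2 -1.82, adjusted p = 0.00034), when 40.2% of all genes were called, 18.7% higher and 21.5% lower. These 3 were also the members whose groups did not overlap, as was true of 37.8% of all genes. Without doxycycline 3 members were higher in shAKAP2 than in shScramble cells, when 18% of all genes were called, 8.65% higher and 9.31% lower: EREG (above), TGFA (log2 0.25, adjusted p = 0.0146) and EGFR (log2 0.40, adjusted p = 0.0411). The same 3 did not overlap between the lines, as for 25.5% of all genes. edgeR called 0 members lower there, and 1 (BTC) at an unadjusted p under 0.05, while DESeq2 and limma-voom each called 1 lower. EGFR averaged 238.3 ± 7.46 CPM in uninduced shAKAP2 and 180.2 ± 9.09 CPM in uninduced shScramble libraries, with no overlap. Its call was lost in 12 of 23 alternatives, with a log2 difference of 0.38 to 0.44 throughout. Among them were no filter on low counts and the omission of 10 single libraries: each of the 8 uninduced ones (adjusted p from 0.0523 for shScramble library 4 to 0.104 for shScramble library 1), induced shScramble library 2 (0.0517) and induced shAKAP2 library 4 (0.0528). BTC was at 2.43 ± 0.744 against 4.43 ± 0.91 CPM (log2 -0.87, 95% interval -1.50 to -0.24, adjusted p = 0.0516). BTC was called lower there in 10 of 23 alternatives, with a log2 value of -1.10 to -0.76 over all 23: DESeq2 (adjusted p = 0.0306), limma-voom (0.0425), no filter (0.0277), only the compared groups (0.0212), the omission of both shScramble libraries numbered 1 (0.0382) and 5 omissions of 1 library (0.0233 to 0.0421). Those 5 were uninduced shScramble library 3, induced shScramble libraries 1 and 4, uninduced shAKAP2 library 3 and induced shAKAP2 library 4.

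Levels of different genes were compared per length of exon, as RPKM, the CPM divided by that length in kilobases. The length joins the exons of all annotated transcripts of a gene, from 1648 bases in AREG to 12521 in EGFR. Which transcripts these cells use was not examined, and the order of genes and the ligand shares depend on that length. In uninduced shScramble cells the order was AREG (62.9 RPKM), TGFA (40.1), HBEGF (35.1), EGFR (14.4), EREG (5.996), ERBB2 (5.59), NRG1 (4.74), BTC (1.57), ERBB3 (0.32) and EPGN (0.0665). TGFA and HBEGF overlapped in range, as did EREG with ERBB2 and ERBB2 with NRG1, and the other neighbours did not. In induced shScramble cells AREG (48.5 RPKM) and TGFA (42.8) overlapped, and EREG (4.04) came after ERBB2 (5.51) and NRG1 (4.42), overlapping NRG1. In uninduced shAKAP2 cells TGFA (47.6 RPKM) and AREG (45.9) led with overlapping ranges, followed by HBEGF (36.5), EGFR (19.0) and EREG (8.72), each below the one before without overlap. In induced shAKAP2 cells HBEGF (46.1 RPKM) and AREG (42.6) led with overlapping ranges. TGFA (18.9) came next and overlapped EGFR (15.9), and EREG (3.52) was again below ERBB2 (5.41) and NRG1 (4.35), overlapping NRG1. ERBB3 RNA was at most 0.472 RPKM in any library.

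**Figure D3:**
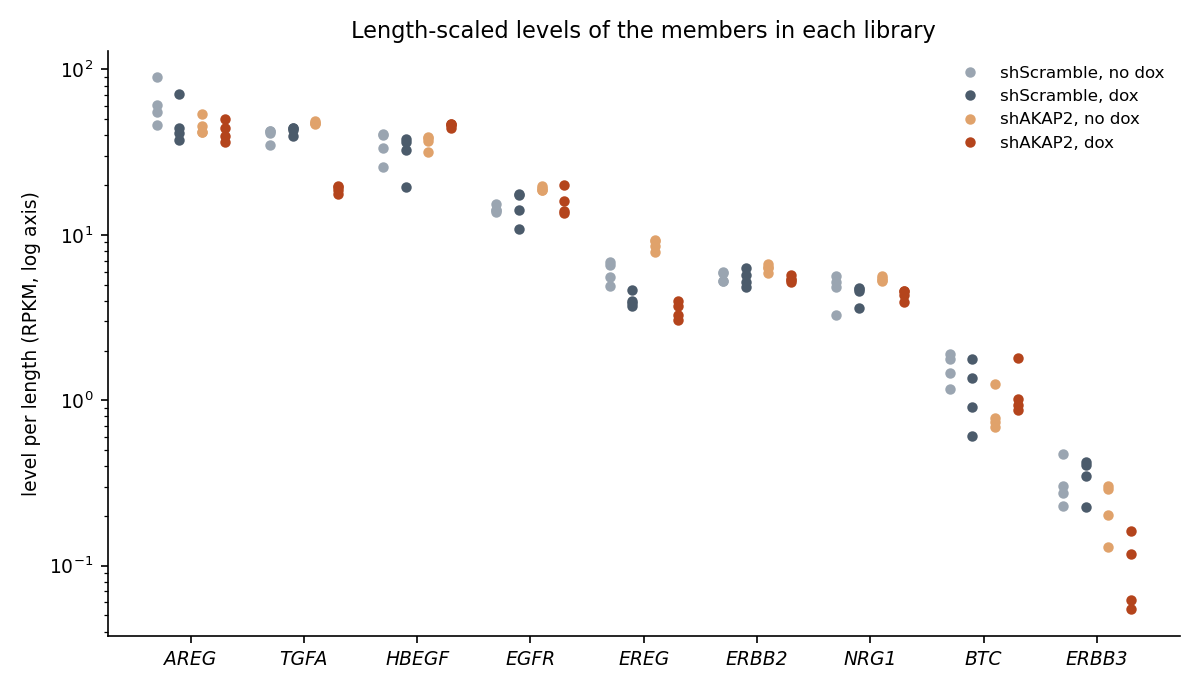
Length-scaled level in RPKM (y axis, log scale) of 9 members (x axis) in each library, coloured by group. AREG and HBEGF lie above the receptors in every group, TGFA overlaps EGFR in induced shAKAP2 cells (17.7 to 19.9 against 13.5 to 20.01 RPKM), and ERBB3 lies lowest.

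Summed over the 7 ligands, the level was 150.5 ± 10.6 RPKM in uninduced and 132.7 ± 5.23 RPKM in induced shScramble cells, and 145.1 ± 2.42 RPKM in uninduced and 116.8 ± 7.23 RPKM in induced shAKAP2 cells (SD, n = 4 each). The sum is a description, with no test. TGFA made up 32.8% ± 0.928 of it in uninduced and 16.2% ± 0.789 in induced shAKAP2 cells, while HBEGF made up 25.2% ± 2.77 and 39.6% ± 1.86. EREG made up 6.004% ± 0.359 and 3.01% ± 0.361. In shScramble cells TGFA was 26.9% ± 4.00 without and 32.4% ± 2.78 with doxycycline, and HBEGF 23.6% ± 5.54 and 24.1% ± 7.09. AREG made up 41.4% ± 9.61 and 36.2% ± 9.86 in shScramble cells without and with doxycycline. In the shScramble libraries numbered 1 it made up 55.2% and 50.7%. In the shAKAP2 line AREG was 31.6% ± 3.29 and 36.3% ± 2.91.

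**Figure D4:**
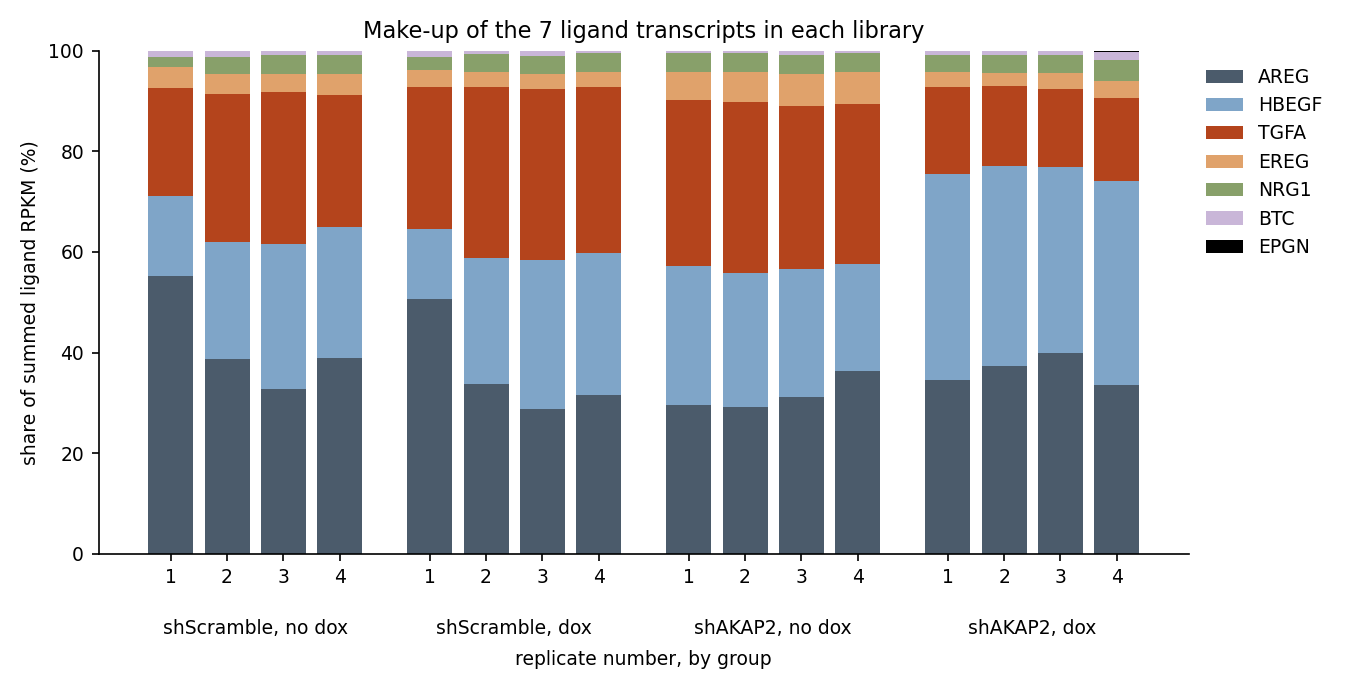
Share of the summed RPKM of the 7 ligand genes (y axis, percent) in each library (x axis, replicate number by group), one colour per ligand. The TGFA band is narrowest in the 4 induced shAKAP2 libraries, at 15.5% to 17.3%, and the HBEGF band widest there, at 36.9% to 41.0%.

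The other genes of the pathway were followed with a list of 80 from general knowledge, of which 77 were tested. In the shAKAP2 line 11 were higher and 25 lower with doxycycline, when 13.1% of all tested genes were higher and 15.2% lower. The list's median log2 fold change was -0.05, against 0.002 over all genes. In the shScramble line edgeR called 0 of 77 (1 higher and 4 lower at an unadjusted p under 0.05), as did DESeq2 and limma-voom, while 4 were called higher without both libraries numbered 1. The difference between the lines was called for 23, 4 more positive and 19 more negative in the shAKAP2 line, when 7.53% of all tested genes were more positive and 10.5% more negative. Up to 3 called genes with the smallest p were named in each role group, and each adjusted p was 0.019 or less for the shAKAP2 effect. Of the other family genes, EGF itself averaged 4.35 CPM in uninduced and 6.47 CPM in induced shAKAP2 cells (log2 0.58, adjusted p = 0.129). ERBB4, the remaining receptor, had at most 5 counts in a library and was not tested.

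Of 7 genes for ligand release, 2 rose and 2 fell. ADAM17, the main sheddase of TGFA, AREG, HBEGF and EREG, rose (log2 0.66, SE 0.121; 55.3 ± 4.10 to 87.6 ± 1.70 CPM). RHBDF1, an inactive rhomboid that escorts ADAM17 to the cell surface, fell (log2 -0.87, SE 0.159), and so did ADAM10, the main sheddase of BTC (log2 -0.37, SE 0.0864). Of 11 adaptors and exchange factors, 1 rose and 3 fell. GRB2, which links phosphorylated receptors to SOS, fell from 171.3 ± 3.68 to 93.6 ± 2.86 CPM (log2 -0.87, SE 0.0597), CRK, another SH2 adaptor, fell (log2 -0.60, SE 0.0612), and SHC1, which recruits GRB2, rose (log2 0.32, SE 0.0627).

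Of 10 genes of RAS, RAF, MEK and ERK, 1 rose and 5 fell, among them the kinase genes MAP2K1 (log2 -0.72, SE 0.0637) and MAP2K2 (log2 -0.38, SE 0.0606) and the GTPase gene HRAS (log2 -0.49, SE 0.0686). Of 10 PI3K and AKT genes, 1 rose and 2 fell. The regulatory subunit gene PIK3R3 rose (log2 0.88, SE 0.188), and the kinase gene AKT1 fell (log2 -0.24, SE 0.0655). Of 16 genes for receptor inhibition and endocytosis, 2 rose and 3 fell, the last being the phosphatase genes PTPRJ (log2 -0.55, SE 0.0727) and PTPN1 (log2 -0.27, SE 0.0553) and LRIG1, which restrains ERBB receptors (log2 -0.27, SE 0.0835). LRIG1 also stood lower in uninduced shAKAP2 (20.8 ± 1.82 CPM) than in uninduced shScramble cells (36.4 ± 0.889 CPM; log2 -0.81, adjusted p = 1.6e-06).

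Of 9 ERK feedback inhibitors, 2 rose and 5 fell, including the phosphatase genes DUSP6 (log2 -0.45, SE 0.0671) and DUSP4 (log2 -0.82, SE 0.150) and SPRY4 (log2 -0.57, SE 0.115). Of 12 ERK-responsive transcripts, 2 rose and 5 fell. PLAUR, the urokinase receptor gene, rose from 59.6 ± 4.21 to 138.0 ± 12.04 CPM (log2 1.21, SE 0.0893), and PHLDA1 (log2 -0.59, SE 0.0609) and IER3 (log2 -0.64, SE 0.0889) fell. The word GAACACA stood in the longest 3' UTR of 10 of the 25 list genes that fell, 1 of the 11 that rose and 7 of the 41 not called, against 30.9% of all genes that fell, 5.74% of those that rose and 9.89% of those not called.

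**Figure D5:**
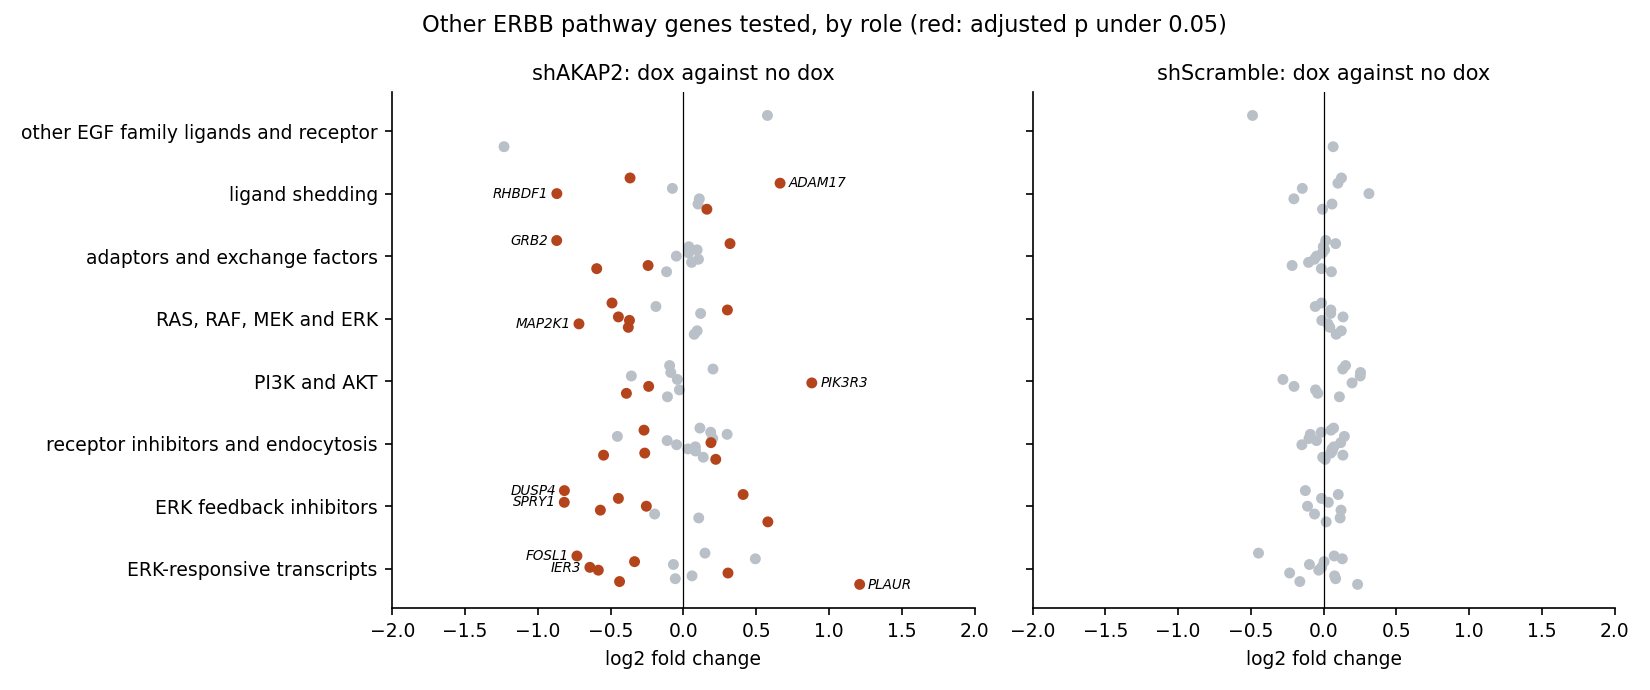
Log2 fold change with doxycycline (x axis) of each of the 77 tested pathway genes, by role (y axis), in the shAKAP2 line (left) and the shScramble line (right); red points passed an adjusted p of 0.05, and called genes beyond 0.6 are named. In the shAKAP2 line 36 points are red, 25 of them left of 0, and in the shScramble line none is.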

How the data were processed

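Polyadenylated RNA of 16 libraries, 4 in each of 4 groups, was sequenced, per the labels. The authors deposited raw counts, whole numbers of reads per gene. STAR 2.5.2b, featureCounts, Subread 1.5.2 and GRCh38 were used, per the submitters' processing notes; the annotation release and use of strand are not stated there. Every count column was matched to its library by name.

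Genes with enough counts (filterByExpr) were scaled with TMM and fitted with edgeR 4.0.16 in R 4.3.3 as a robust quasi-likelihood model of group means over all 16 libraries (12 residual degrees of freedom; biological coefficient of variation 14.4%). There were 5 contrasts, and p-values were Benjamini-Hochberg adjusted over all 15566 tested genes; a call is an adjusted p under 0.05. Intervals are 95% and use the model's degrees of freedom. Levels are CPM, and RPKM uses the exon length of GENCODE release 29, from which 3' UTRs also come. Promoters are from RefSeq. The fit was tested on simulated counts.

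The members and lists were chosen with earlier results of these data known. All members are named; up to 3 called pathway genes per role are named by smallest p in the shAKAP2 contrast (1 gene so chosen is not reported here), and the 5 genes most like EREG by correlation. Alternatives were RLE scaling, no filter, DESeq2 1.42.0, limma-voom (limma 3.58.1), only the compared groups, the replicate number as a block, each library left out, and both shScramble libraries numbered 1 left out.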

Additional observations from a re-analysis of the deposited data

Results flagged for a closer look

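Of 39 groups of 4 libraries checked among the members by Dixon's ratio at its 95% critical value, 3 held a library far from the other three; chance alone flags about 1 in 20 such groups. BTC was at 3.54 CPM in uninduced shAKAP2 library 3, where the lowest library had 1.93 CPM. It was at 5.05 CPM in induced shAKAP2 library 4, where the lowest had 2.46 CPM. NRG1 was at 40.9 CPM in induced shScramble library 1, where the highest had 54.0 CPM.

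The doxycycline effect differed between the lines by the interaction term of edgeR's quasi-likelihood test for EREG (log2 difference -0.74) and TGFA (-1.43), both more negative in the shAKAP2 line. It also differed for 16 of the 20 named pathway genes. Those were named by their p in the shAKAP2 line, which enters the difference, so this count carries no weight of its own; over the whole list it was 23 of 77, and over all tested genes 18%. The log2 difference was negative for RHBDF1 (-1.18), ADAM10 (-0.49), GRB2 (-0.89), CRK (-0.58), MAP2K1 (-0.75), HRAS (-0.48), MAP2K2 (-0.42), PTPRJ (-0.68), PTPN1 (-0.31), DUSP6 (-0.43), DUSP4 (-0.69), SPRY4 (-0.69), PHLDA1 (-0.55) and IER3 (-0.63). It was positive for ADAM17 (0.57) and PLAUR (0.98).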

How the results depend on the processing

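Over 45 member values (9 genes in 5 contrasts) and up to 23 alternatives each, 934 of 1026 alternative values kept direction and call, 27 lost a call, 35 gained one and 30 changed sign. The EREG and TGFA calls in the shAKAP2 line and between the lines' effects were among those kept throughout. The number of members called was 2 to 7 with each library left out for the shAKAP2 effect and 2 to 4 for the difference between the lines. For the shScramble effect edgeR called 0 with only the compared groups, and 1 (EREG) at an unadjusted p under 0.05 in the fit of all libraries, as did DESeq2 and limma-voom after adjustment. For the difference between the lines it was 4 with no filter, EPGN included, and 6 without both shScramble libraries numbered 1, and without those it was 5 for the uninduced lines. The values that changed sign under an alternative were at most 0.185 in size in the reported fit, and none was called. Between induced lines, BTC (-0.003) was 0.004 with RLE scaling, 0.002 with no filter, 0.112 with limma-voom, 0.034 with the replicate block and 0.279 without both libraries numbered 1. Without both, AREG was 0.055 and EGFR -0.054 there, ERBB2 in the shScramble line 0.074, and HBEGF between uninduced lines -0.063. With each library left out, the log2 ranges were -0.297 to 0.276 (BTC), -0.289 to 0.055 (AREG), -0.054 to 0.167 (EGFR), -0.111 to 0.025 (NRG1) and -0.091 to 0.043 (ERBB2) between induced lines. They were -0.266 to 0.032 (HBEGF), -0.026 to 0.192 (EGFR) and -0.091 to 0.041 (ERBB2) in the shScramble line, and -0.062 to 0.138 (HBEGF) between uninduced lines. The cause was not tested. Same-numbered libraries correlated at 0.627, 0.065, 0.432 and 0.164 within shScramble and 0.123, 0.01, 0.053 and 0.138 within shAKAP2 (deviations from group means), and not every library correlated best with its own number. Within shScramble, the uninduced libraries 1 and 3 did, and 2 and 4 did not. Within shAKAP2, the uninduced libraries 1, 3 and 4 did, and 2 did not. With 3 of the 8 pairs under 0.1, the numbers were not taken to pair the samples. With the replicate block, 5 members were called for the shAKAP2 effect (NRG1 added, adjusted p = 0.0128), 3 between the lines' effects (ERBB3 added, adjusted p = 0.0275) and 2 between uninduced lines (EGFR lost, adjusted p = 0.0572). Depth limits EPGN, ERBB3 and BTC.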

Other observations

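The genes whose levels followed EREG most closely over the 16 libraries, by Pearson's r of log2(CPM + 1) among 12855 genes with a mean of at least 1 CPM, were SLITRK5 (r = 0.96), a neuronal transmembrane protein gene, CYP4V2 (r = 0.93), a cytochrome P450 gene, HS3ST3B1 (r = 0.91), a heparan sulfate sulfotransferase gene, ARPIN (r = 0.90), an Arp2/3 inhibitor gene, and the pseudogene NAP1L4P1 (r = 0.89). The libraries fall into 4 groups, so these values describe the group pattern and carry no p. SLITRK5 averaged 2.61, 0.746, 4.96 and 0.258 CPM in uninduced shScramble, induced shScramble, uninduced shAKAP2 and induced shAKAP2 cells, and CYP4V2 19.9, 16.3, 25.3 and 14.6 CPM. Both were highest in uninduced shAKAP2 cells and lowest in induced ones, as EREG was. Among the members TGFA was nearest to EREG (r = 0.66), and AREG, its neighbour on the chromosome, had r = 0.34.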
